A study of Mus musculus with 2 samples.

Results

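The miR-181 family of the mouse comprises 6 precursor genes, Mir181a-1, Mir181b-1, Mir181a-2, Mir181b-2, Mir181c and Mir181d, and all 6 were measured among the 1973 miRNA genes of the newborn lung tables. The members were taken by gene identifier and symbol and not by a cut on their values, although earlier results of these data were known. Small RNA under 30 bases was sequenced from whole lung, taken on day 0 after birth from mice of the C57BL/6N substrain B6NCrl. There is 1 group with 2 biological replicates, and the labels name no agent and no engineered allele. Replicate 1 was made from the 2 lungs of pup 1 and replicate 2 from the 2 lungs of pup 3 of pregnancy 1. Both libraries carry the same donor record, so that they came from separate animals rests on the labels, and their sex was not collected. Levels are reads on the gene's own strand per 1000000 such reads on all miRNA genes (CPM), and a mean is followed by the SD over both libraries.

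A miRNA gene is transcribed as a longer RNA that is cut to a hairpin precursor and then to a short duplex, whose arms are called 5p and 3p. One strand is loaded into an Argonaute protein, where the seed near its 5′ end pairs with target mRNAs and represses them. The miR-181 family is conserved across vertebrates. In mice miR-181a is best known for its role in lymphocyte development, where it tunes the sensitivity of T cell receptor signalling, and miR-181b is known in vascular endothelium for restraining NF-κB signalling.

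The 6 genes lie in 3 clusters of 2 genes each on the assembly GRCm38 (mm10). Mir181a-1 (ENSMUSG00000065565.1, chr1:137966455-137966541, plus strand) and Mir181b-1 (ENSMUSG00000065458.1, chr1:137966639-137966718, plus strand) are 97 bases apart. Both lie within an intron of the noncoding gene Gm4258 on the same strand, and an exon of the long noncoding RNA gene A430106G13Rik on that strand covers Mir181b-1 and the end of Mir181a-1. Mir181a-2 (ENSMUSG00000065423.1, chr2:38852735-38852810, plus strand) and Mir181b-2 (ENSMUSG00000065578.1, chr2:38853830-38853918, plus strand) are 1019 bases apart and lie in an intron of Nr6a1, an orphan nuclear receptor gene, on the opposite strand. Mir181d (ENSMUSG00000076338.1, chr8:84178716-84178787, minus strand) and Mir181c (ENSMUSG00000065483.1, chr8:84178873-84178961, minus strand) are 85 bases apart in an intron of Nanos3, a germ cell gene, on the same strand. The positions are from GENCODE M21, which carries a later version of the Mir181c entry than the tables do.

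The mature sequences show which arms of the family can be told apart by a short read. The 6 precursors give 12 mature sequences, of which 10 are distinct, namely 4 of the 5p arm and 6 of the 3p arm. The 5p sequences come first, 5′ to 3′, from RefSeq on GRCm38.p6, with the seed (bases 2 to 8) in capitals.
mmu-miR-181a-5p: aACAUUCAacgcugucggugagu
mmu-miR-181b-5p: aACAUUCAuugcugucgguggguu
mmu-miR-181c-5p: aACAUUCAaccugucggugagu
mmu-miR-181d-5p: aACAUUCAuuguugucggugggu
All 4 share the seed ACAUUCA, and no mature sequence outside the family had it at these bases among the 1679 mature names in the RefSeq table. Counted from 1 at the 5′ end, miR-181b-5p and miR-181d-5p differ by the substitution C12U and by a last base that only miR-181b-5p has. The sequences of miR-181a-5p and miR-181c-5p lie 1 edit apart, and miR-181a-5p and miR-181b-5p lie 4 apart.

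The 3p sequences are given in the same way.
mmu-miR-181a-1-3p: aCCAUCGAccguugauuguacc
mmu-miR-181c-3p: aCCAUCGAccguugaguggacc
mmu-miR-181a-2-3p: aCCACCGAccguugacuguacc
mmu-miR-181b-1-3p: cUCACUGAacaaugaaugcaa
mmu-miR-181b-2-3p: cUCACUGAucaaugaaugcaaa
mmu-miR-181d-3p: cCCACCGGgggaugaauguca
These fall into 4 seeds, with miR-181a-1-3p and miR-181c-3p sharing CCAUCGA and the miR-181b 3p sequences sharing UCACUGA. Each 3p sequence was held by 1 precursor among the 2202 mouse miRNA precursors searched.

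The 5p sequence of miR-181a was held by both Mir181a-1 and Mir181a-2, and that of miR-181b by both Mir181b-1 and Mir181b-2. Their precursors are printed with the longest stretch that the members of each pair have in common in capitals.
Mir181a-1 (chr1:137966455-137966541, plus strand): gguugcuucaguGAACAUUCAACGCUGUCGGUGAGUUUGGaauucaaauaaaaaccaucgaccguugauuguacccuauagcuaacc
Mir181a-2 (chr2:38852735-38852810, plus strand): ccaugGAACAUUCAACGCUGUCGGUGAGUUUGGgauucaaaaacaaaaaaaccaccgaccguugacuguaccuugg
Mir181b-1 (chr1:137966639-137966718, plus strand): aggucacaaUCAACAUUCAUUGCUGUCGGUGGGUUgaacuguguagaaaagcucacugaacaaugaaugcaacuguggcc
Mir181b-2 (chr2:38853830-38853918, plus strand): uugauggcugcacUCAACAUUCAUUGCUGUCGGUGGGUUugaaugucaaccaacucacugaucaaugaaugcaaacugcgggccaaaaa
The common stretch of the Mir181a genes is 28 bases long and reaches 1 base before and 4 bases after miR-181a-5p. That of the Mir181b genes is 26 bases long, reaches 2 bases before miR-181b-5p and ends with its last base. A read that lies wholly inside such a stretch has at least 2 positions. Neither Mir181c nor Mir181d has 20 bases in a row in common with another miRNA gene. Reads mapped to several places were 34.6% and 36.7% of all reads in replicates 1 and 2, and are listed in a separate row. The rows of the genes are therefore read as counts of reads with a single position. The tables do not separate the arms of a precursor. On this reading, reads that match miR-181a-5p or miR-181b-5p exactly and end within it are absent from the rows of the Mir181a and Mir181b genes. Which arm the counted reads came from was not analysed here.

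**Figure D1:**
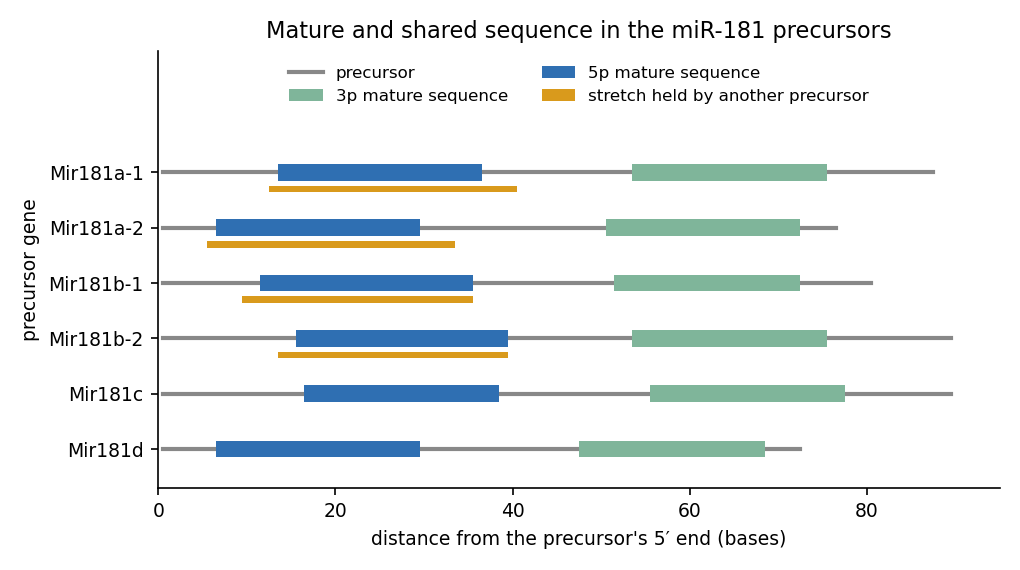
Mature 5p (blue) and 3p (green) sequences on the 6 miR-181 precursors (grey lines), by distance from the precursor's 5′ end in bases. Orange bars mark stretches of at least 20 bases held by another miRNA precursor: they cover the whole 5p sequence in the Mir181a and Mir181b genes and are missing from Mir181c and Mir181d.

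The libraries held 4532902 and 5426081 own-strand reads on miRNA genes in replicates 1 and 2, and their gene counts differed by far more than sampling noise, with a chi-square of 75.2 for each of 374 degrees of freedom. The 5 genes of the miR-200 epithelial list summed to 30556 ± 329 CPM, endothelial Mir126a stood at 160649 CPM and liver Mir122 at 49.5 ± 5.08 CPM. The heart and skeletal muscle list, led by Mir208b, summed to 426 ± 26.3 CPM in the counted reads, with 2 of its 5 members, Mir1a-1 and Mir133a-1, at 0 reads in both libraries, and the erythroid pair Mir451a and Mir144 to 1211 ± 113 CPM. In whole tissue, fewer cells of a type and less RNA per cell cannot be told apart.

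In the counted reads the family was led by Mir181c, and the pair on chromosome 8 held most of its reads. Each library had at least 10 reads on every one of the 6 members, whereas 308 of 1973 miRNA genes (15.6%) reached this. Together the members summed to 6331 and 6190 CPM in replicates 1 and 2, a mean of 6260 ± 99.6 CPM (SD, n = 2), or 0.626% of the reads on miRNA genes. No read was counted on the opposite strand of any member.

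Mir181c, the source of miR-181c-5p, had 14716 reads in replicate 1 and 17299 in replicate 2, or 3246 and 3188 CPM. Its mean of 3217 ± 41.3 CPM was 51.4% of the family sum in the counted reads and the 41st highest of all 1973 genes. Reads with several positions enter neither figure, so 51.4% is not its share of all miR-181 reads in the lung. Its coefficient of variation between the pups was 1.28%, the lowest of the 6 members. Mir181d, its neighbour, had 5268 and 5770 reads in replicates 1 and 2, or 1162 and 1063 CPM, with a mean of 1113 ± 69.9 CPM.

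In the counted reads Mir181a-1, whose 5p sequence is repeated in Mir181a-2, was the second highest member. It had 5749 reads in replicate 1 and 8386 in replicate 2, or 1268 and 1545 CPM, with a mean of 1407 ± 196 CPM. Mir181a-2 had 224 and 236 reads in replicates 1 and 2, or 49.4 and 43.5 CPM, with a mean of 46.5 ± 4.19 CPM. The counted reads of the Mir181a genes therefore differed by far more than the spread between the libraries. Every value of Mir181a-1 lay above every value of Mir181a-2.

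The Mir181b genes stood in the other order. Mir181b-2 had 2698 and 1870 reads in replicates 1 and 2, or 595 and 345 CPM, with a mean of 470 ± 177 CPM. Mir181b-1 had 42 reads in replicate 1 and 26 in replicate 2, or 9.27 and 4.79 CPM, and its mean of 7.03 ± 3.16 CPM was the lowest of the family. Exact Clopper-Pearson 95% intervals for Mir181b-1 reached from 6.68 to 12.5 CPM in replicate 1 and from 3.13 to 7.02 CPM in replicate 2. These intervals overlap and, like all intervals here, cover counting error only, since PCR copies are not independent molecules.

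**Figure D2:**
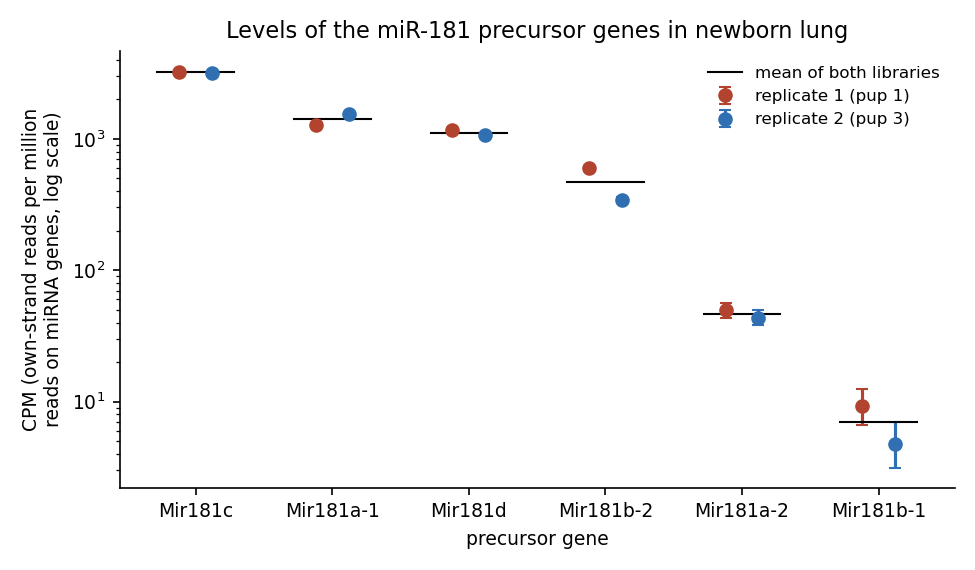
Own-strand CPM (log scale) of the 6 miR-181 precursor genes, ordered by mean, in replicate 1 (red) and replicate 2 (blue). Points are libraries, error bars exact 95% Clopper-Pearson intervals and lines the mean of both. The means run from 3217 CPM for Mir181c to 7.03 CPM for Mir181b-1.

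The order of levels in the counted reads, Mir181c, Mir181a-1, Mir181d, Mir181b-2, Mir181a-2 and Mir181b-1, was the same in both libraries. Mir181a-1 and Mir181d stood closest, at a log2 ratio of 0.13 in replicate 1 and 0.54 in replicate 2. Their mean log2 ratio of 0.33 ± 0.29 (SD, n = 2) was close to its own spread, so these neighbours do not differ clearly beyond it. Every other step in the order was at least 1.20 on the log2 scale and larger than its SD, from 1.20 ± 0.22 for Mir181c over Mir181a-1 to 3.29 ± 0.43 for Mir181b-2 over Mir181a-2. Levels are per gene, and each member stands for reads of at most 2 mature sequences. Reads with several positions are absent from the rows of the Mir181a and Mir181b genes in both libraries. Neither the SD nor the like order in both libraries covers this, so the order is that of counted reads only.

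Within clusters, genes that lie side by side were far apart in counted reads, and the paralogous clusters ran in opposite directions. On chromosome 1, Mir181a-1 exceeded Mir181b-1 by 137-fold in replicate 1 and 323-fold in replicate 2, a log2 ratio of 7.72 ± 0.87 (SD, n = 2). On chromosome 2, Mir181a-2 stood below Mir181b-2 at a log2 ratio of -3.59 in replicate 1 and -2.99 in replicate 2, or -3.29 ± 0.43. Mir181a-2 thus made up 7.67% of the reads of its cluster in replicate 1 (exact 95% interval 6.73% to 8.69%) and 11.2% in replicate 2 (9.89% to 12.6%). Against this, Mir181a-1 made up 99.3% and 99.7% of its cluster in replicates 1 and 2.

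On chromosome 8 the pair was closer and steadier between the pups. Mir181d stood below Mir181c at a log2 ratio of -1.48 in replicate 1 and -1.58 in replicate 2, or -1.53 ± 0.072 (SD, n = 2), and made up 26.4% and 25.0119% of the pair. Neither gene of this cluster has 20 or more bases in a row in common with another miRNA gene. Mir181c does have 17 in a row in common with Mir181a-1 and 17 with Mir181a-2. The 4 genes with a common stretch of 20 or more bases, which covers their whole 5p sequence, can have reads that are in no gene row. The log2 ratios of the other clusters are therefore those of reads with a single position. How far the stretches set these ratios was not tested. With 2 libraries the smallest p of an exact two-sided sign-flip test is 0.5, and no p is given for the ratios.

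Summed by locus, the chromosome 8 cluster held 4330 ± 111 CPM (SD, n = 2), the chromosome 1 cluster 1414 ± 193 CPM and the chromosome 2 cluster 516 ± 181 CPM. The chromosome 8 cluster exceeded the chromosome 1 cluster by 1.62 ± 0.23 on the log2 scale and the chromosome 2 cluster by 3.11 ± 0.48. The chromosome 1 cluster exceeded the chromosome 2 cluster by 0.99 in replicate 1 and 2.00 in replicate 2. The order of the clusters was the same in both pups, and reads with several positions are absent from the chromosome 1 and 2 sums.

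The pups differed in some members beyond counting error, most in the Mir181b genes. Of 375 miRNA genes with a sum of at least 10 reads over both libraries, 42.4% passed the two-sided exact binomial test of their split of reads between the libraries, with Benjamini-Hochberg adjustment at 0.05. Of the 6 members 4 passed. In replicate 1, 3 of these were higher and 1 was lower, against 23.2% and 19.2% of all tested genes. The median log2 ratio of replicate 1 over replicate 2 was 0.16 over the members and 0.028 over all tested genes. With 6 members a count of 4 is not set apart from this background. The test compares these 2 libraries and has no replicate on either side.

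Mir181b-2, at 595 CPM in replicate 1 and 345 CPM in replicate 2, had a log2 ratio of 0.79 (exact 95% interval 0.70 to 0.87) and an adjusted p of 7.26e-74 in the exact binomial test. Among the 233 genes that averaged 100 reads or more, 4 had a larger log2 ratio in size, and the SD over those genes was 0.26. Mir181b-1, with 42 and 26 reads, had a log2 ratio of 0.95 (0.21 to 1.72) and an adjusted p of 0.0261 in the same exact test. The counted reads of both Mir181b genes were thus higher in replicate 1. Their common stretch covers the whole of miR-181b-5p, so these counts do not give the level of miR-181b-5p in either pup.

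Mir181a-1 went the other way, with a log2 ratio of replicate 1 over replicate 2 of -0.29 (-0.33 to -0.24) and an adjusted p of 3.51e-30 in the exact binomial test. That is close to the SD of 0.26 over the 233 genes that averaged 100 reads or more, many of them with fewer reads than Mir181a-1. Of these genes, 53 had a larger ratio in size. Mir181d was higher in replicate 1 by a log2 ratio of 0.13 (adjusted p 1.28e-05, exact). Mir181a-2 and Mir181c did not pass, with log2 ratios of 0.18 (-0.086 to 0.45) and 0.026 (-0.0056 to 0.058) and adjusted p of 0.311 and 0.202 in the exact test.

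The exact binomial test takes in counting error alone. In edgeR's exact test with the common dispersion of both libraries, a coefficient of variation of 13.2%, 0 of 6 members and 4 of 375 genes (1.07%) passed after adjustment. That dispersion was estimated from the difference between the same 2 libraries that the test compares, which by itself leaves few calls, so the count does not show that the members did not differ. In this exact test 2 members had an unadjusted p under 0.05, Mir181b-2 (p = 0.00413) and Mir181b-1 (p = 0.0344), as did 32 of all 375 genes (8.53%). The small ratios also moved with the scaling: with edgeR's TMM factors Mir181c turned to -0.043 (adjusted p 0.0202, exact binomial test) and Mir181d fell short of the threshold (adjusted p 0.0732).

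**Figure D3:**
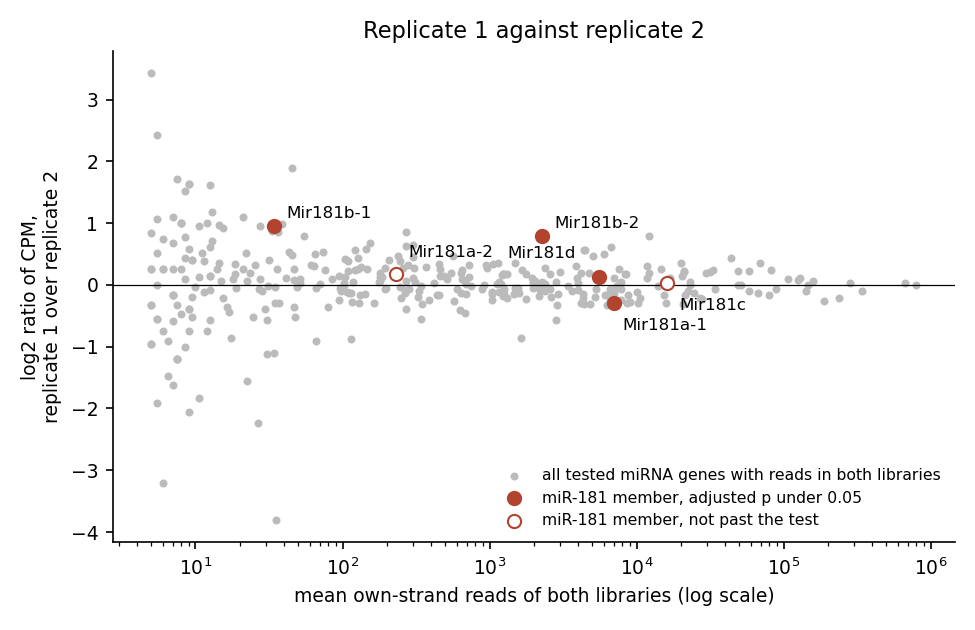
Log2 ratio of CPM, replicate 1 over replicate 2, against the mean number of own-strand reads (log scale), for all tested miRNA genes with reads in both libraries (grey). The 6 miR-181 members are red, filled where the exact binomial test gave an adjusted p under 0.05; Mir181b-2 lies at 0.79 and Mir181a-1 at -0.29.

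The family was set beside miR-30 and miR-29, other families whose genes lie in pairs at several loci. At 6260 ± 99.6 CPM the miR-181 family stood below the miR-30 family at 42632 ± 5619 CPM, a log2 ratio of -2.76 ± 0.17 (SD, n = 2). It stood above the miR-29 family at 833 ± 23.3 CPM, with a log2 ratio of 2.91 ± 0.063. Each ratio pointed the same way in replicates 1 and 2 and was many times its SD. The sums leave out reads with several positions, which can affect the families unequally, and the SD does not cover this. Without members that have 20 bases in a row in common with another miRNA gene, the log2 ratios were -3.29 over miR-30 and 2.58 over miR-29. These set 2 miR-181 genes against 4 genes of miR-30 and against 1 gene of miR-29, Mir29a.

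In the families of comparison, members with 20 bases in a row also present in another miRNA gene were the lowest. In miR-30 these were Mir30c-2 at 53.1 ± 2.07 CPM and Mir30c-1 at 23.0 ± 3.19 CPM, below Mir30b at 315 ± 8.31 CPM. In miR-29 they were Mir29c at 99.2 ± 7.04 CPM, Mir29b-1 at 7.97 ± 3.71 CPM and Mir29b-2 at 0.718 ± 0.233 CPM, below Mir29a at 725 ± 34.3 CPM. In miR-181 this order did not hold throughout, because Mir181a-1 with such a stretch, at 1407 ± 196 CPM, stood beside Mir181d without one, at 1113 ± 69.9 CPM. Over all genes with mature sequences in RefSeq, 39 of 103 (37.9%) with a mature sequence in more than 1 precursor had at least 10 reads in each library, and 244 of 813 (30.0123%) without one did. Among those detected, the median level was 36.1 CPM with a repeated mature sequence and 208 CPM without.

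**Figure D4:**
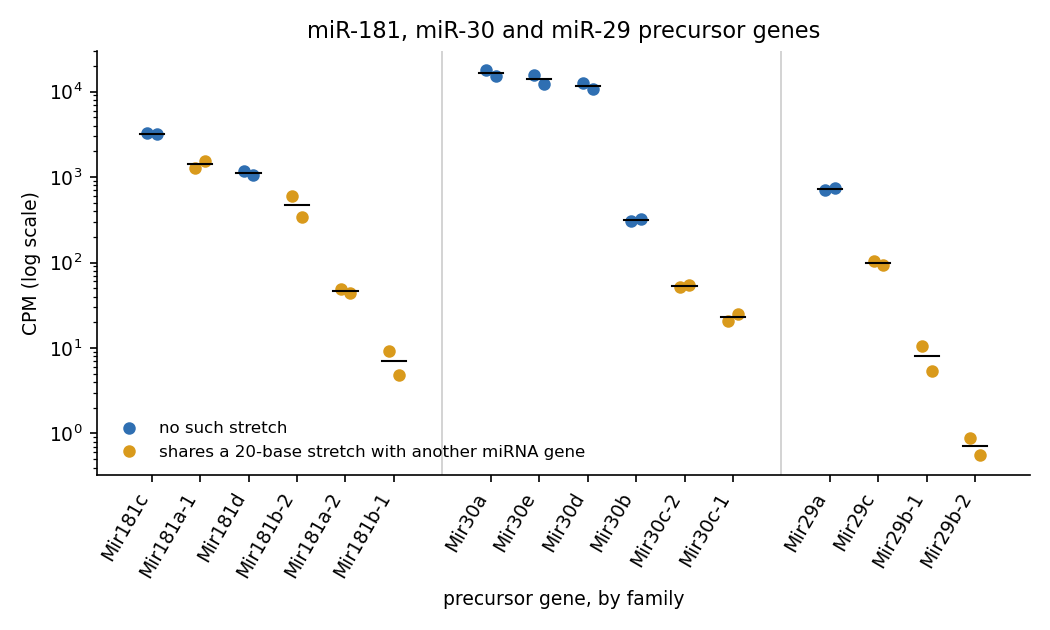
Own-strand CPM (log scale) of the precursor genes of miR-181, miR-30 and miR-29, ordered by mean within each family. Points are the 2 libraries, replicate 1 on the left, and lines their mean. Genes that share a 20-base stretch with another miRNA gene are orange: they are the lowest of miR-30 and miR-29, while in miR-181 Mir181a-1 at 1407 CPM stands beside Mir181d at 1113 CPM.

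miRNAs known beside miR-181 in blood cell development were described as a list, of which 7 of 9 genes were matched to a row by name. Of these, 6 had at least 10 reads in each library. The sum of the 7 genes was 9717 ± 778 CPM (SD, n = 2). Listed as Mir92a-1, 1 gene was not matched to the row named Mir92-1, at 862 and 697 CPM in replicates 1 and 2, which is not in the sum. The leukocyte miRNA Mir142 was the other gene not matched by name, so the sum does not hold it either. The highest were Mir17, a growth-associated miRNA, at 5954 ± 562 CPM, Mir342 at 1378 ± 406 CPM and the myeloid miRNA Mir223 at 1307 ± 106 CPM. The rest of the matched genes had means from 1.71 to 830 CPM, with the lymphocyte miRNA Mir150 at 195 ± 26.0 CPM. Of the 7 genes, all tested, 3 were higher and 3 lower in replicate 1 in the exact binomial test, against 23.2% and 19.2% of all tested genes.

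By distance of log2(CPM + 1) over the 2 libraries, the genes nearest to Mir181c were Mir140 (0.125) and Mir27b (0.163). Those nearest to Mir181a-1 were Mir361 (0.107) and Mir101b (0.136), and to Mir181d Mir200a (0.0266) and Mir381 (0.168). Mir181b-2 had no gene as close, with Mir205 at 0.391 and Mir148a at 0.515. Mir194-2 and Mir679 lay nearest to Mir181a-2 (0.195 and 0.201), and Mir702 and Mir8114 to Mir181b-1 (0.0634 and 0.145). With 2 libraries this likeness is one of level and of the ratio between the pups.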

How the data were processed

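The authors deposited 1 table of raw read counts per library, with 3 count columns per miRNA gene, made with mm10 and GENCODE M4 per the text files deposited with them. How reads were trimmed, aligned and counted is not given in the sources used here. In gene rows the first of these is the sum of the other two, which were read as own-strand and opposite-strand reads. The own-strand column, with 98.2% and 98.0404% of the gene reads of replicates 1 and 2, was used. Rows that name no gene, 45.2% and 47.8% of all reads, stayed out of library sizes. Symbols came from GENCODE M21 (1894 of 1973 identifiers matched), and mature sequences from RefSeq, where all 6 members matched (hairpins for 5).

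Ratios of the libraries were tested in SciPy 1.17.1 with the exact binomial test and Benjamini-Hochberg adjustment over 375 genes. The procedure was tested on simulated Poisson counts, which hold counting error only, so it was not tested at the larger spread of these libraries. edgeR 4.0.16 gave TMM factors and an exact test with a common dispersion, and DESeq2 1.42.0 gave size factors. edgeR's quasi-likelihood test was not run, as each pup has 1 library. Named were all 6 members and, for each, the 2 genes with the nearest level, the comparison families and the 3 highest genes of the blood cell list. Mir150 was named after its values were seen. Members and lists were chosen with earlier results of these data known. A p-value of the exact binomial test is set against counting error only, not against a spread between animals, and concerns these 2 libraries alone. A count of 0 would allow 0.662 and 0.553 CPM in replicates 1 and 2 (3 reads).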

Additional observations from a re-analysis of the deposited data

How the results depend on the processing

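The summed CPM of the family was 6260, and 6190 to 6331 with either library left out. It came to 3350 per 1000000 of all reads in the table and to 6142 with reads on either strand. Without the 4 members that have 20 bases in a row in common with another miRNA gene it was 4330, and without Mir181c 3043. The log2 ratio of the miR-181 over the miR-30 family was -2.76, and -3.29 without members with such a stretch and -3.10 without the most abundant member of each family. Over the miR-29 family it was 2.91, and 2.58 and 4.82 under the same settings, where 2.58 is over Mir29a alone. The ratios within and between clusters were the same with reads on either strand, because no member had reads on the opposite strand. With either library left out they are the ratios of the other library, given above, and pointed the same way. Neither setting is therefore a separate check of these ratios.

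Of the members 4 were called between the pups in the exact binomial test, beside 159 of 375 genes (42.4%). Under other scalings and strand columns 4 or 5 members were, beside 42.4% to 43.5% of genes. The members called were 4 with at least 1 read, beside 147 of 667 genes (22.0%), and 4 with at least 50 reads, beside 154 of 281 (54.8%). In edgeR's exact test 0 members and 4 of 375 genes were called, with a dispersion that comes from the same 2 libraries. The log2 ratio of Mir181c turned to -0.043 with TMM and -0.027 with DESeq2 size factors. Of all calls 54.7% were higher in replicate 1, and 37.7% with TMM, 41.5% with DESeq2 size factors and 66.3% per 1000000 of all reads. With a library left out the difference between the pups cannot be computed. No paired analysis was possible because there is 1 group. Depth limits Mir181b-1, with 42 and 26 reads.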
